A study of Mus musculus with 8 samples.

Results

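The genes described here are 40 genes of DNA repair, taken by symbol from the deposited table of 57010 genes: 10 of the core of non-homologous end joining, 4 of shieldin and of end joining by polymerase theta, 3 of single-strand break repair, 5 of mismatch repair, 10 DNA glycosylases, 5 of the later steps of base excision repair and 3 of nucleotide excision repair. They were chosen by name, but with earlier results of these data known, and all 40 passed the filter on low counts that left 17976 genes to test. RNA was sequenced from mouse embryonic stem cells, which are derived from the early embryo and keep the ability to give rise to any of its tissues, in 4 groups of 2 libraries. Control cells and HSVTK cells were each given ganciclovir (GANC) or the solvent DMSO. The HSVTK cells carry a reporter meant to make the thymidine kinase of herpes simplex virus in 2C-like cells, a rare state of these cultures that resembles the 2-cell embryo. The kinase turns ganciclovir into a toxic nucleotide, so adding the drug should kill them. Strain, dose and duration are not in the labels, and neither is the genotype of the Control cells, the clonality of either line or whether the libraries of a group are separate cultures. The p-values therefore rest on the spread between such libraries alone, and that spread may be technical. The question of the series is how embryonic stem cells fare, in their genome and their self-renewal, once 2C-like cells have been removed.

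Cells mend a broken or altered DNA strand by several routes. In end joining, the Ku heterodimer holds broken ends while nucleases, polymerases and a ligase seal them. Shieldin protects the ends from being cut back, and polymerase theta joins ends that share a few bases. Mismatch repair corrects errors left by replication. In base excision repair a glycosylase removes an altered base and an endonuclease, a polymerase and a ligase restore the strand, while nucleotide excision repair cuts out a short stretch around a bulky lesion. Embryonic stem cells divide quickly and spend much of their cycle in S phase, and they are known for high levels of the repair factors that accompany replication.

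Among the end joining and shieldin genes, Xrcc6, Nhej1, Shld1 and Mad2l2 were the members whose response to ganciclovir in HSVTK cells held in all 18 other ways of analysing the counts. The 250 bases before the start of each are shown because the results on end joining turn on these genes. They come from RefSeq's promoter table for GRCm38.p6, written 5′ to 3′ on the gene's own strand. Capitals mark GC boxes, GGGCGG or its reverse complement, to which factors of the Sp family bind.
Nhej1, chr1:75125227-75125476, minus strand: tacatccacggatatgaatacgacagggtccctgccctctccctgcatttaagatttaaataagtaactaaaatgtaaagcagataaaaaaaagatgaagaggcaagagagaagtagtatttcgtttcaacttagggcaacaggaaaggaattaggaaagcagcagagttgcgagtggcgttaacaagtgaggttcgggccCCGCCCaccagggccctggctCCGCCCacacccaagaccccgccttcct
Shld1, chr2:132686681-132686930, plus strand: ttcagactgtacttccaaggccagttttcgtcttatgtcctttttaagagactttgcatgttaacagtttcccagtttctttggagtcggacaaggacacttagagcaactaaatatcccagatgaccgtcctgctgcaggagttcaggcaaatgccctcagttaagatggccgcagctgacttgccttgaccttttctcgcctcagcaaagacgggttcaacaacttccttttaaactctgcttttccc
Xrcc6, chr15:82016119-82016368, plus strand: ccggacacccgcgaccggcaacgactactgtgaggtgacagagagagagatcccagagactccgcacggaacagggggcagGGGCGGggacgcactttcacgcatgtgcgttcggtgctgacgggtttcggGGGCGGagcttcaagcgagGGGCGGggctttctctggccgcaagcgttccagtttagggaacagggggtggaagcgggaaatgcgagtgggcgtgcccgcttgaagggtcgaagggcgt
Mad2l2, chr4:148130670-148130919, plus strand: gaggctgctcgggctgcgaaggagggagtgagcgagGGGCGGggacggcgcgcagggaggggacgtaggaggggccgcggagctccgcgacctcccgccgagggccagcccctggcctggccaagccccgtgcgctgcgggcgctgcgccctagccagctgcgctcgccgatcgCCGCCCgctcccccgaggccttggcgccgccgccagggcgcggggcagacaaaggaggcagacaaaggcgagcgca
The G and C content of the windows was 48.4% in Nhej1, 46.0% in Shld1, 65.2% in Xrcc6 and 77.6% in Mad2l2. GC boxes numbered 2 in Nhej1, 0 in this Shld1 window, 3 in Xrcc6 and 2 in Mad2l2. Shld1 has 3 annotated windows and Mad2l2 2, and the most upstream one is printed for each. Across the genes, 35 of the 40 members had a window, and their median G and C content was 56.8% against 52.0% for 27025 promoters of the same length. A GC box was found on either strand in 20 of these 35 windows (57.1%) and in 33.0% of all promoters. The CCAAT box, letters CCAAT, was found in 17 (48.6%) against 34.5% of all promoters. The E2F motif of genes that accompany replication, TTTGGCGC or TTTCGCGC, occurred in the windows of Msh3 and Nthl1 (5.71%) and in 0.681% of all promoters. TGACG, the short form of the cyclic AMP element, occurred in 10 windows (28.6%) against 17.8%, and its full form TGACGTCA, which contains it, in Tdg alone (2.86%) against 1.60%. The members' windows held a median of 14 CG pairs (C followed by G), against 6 in all promoters. All promoters include those of genes too low to test here, while all 40 members were tested. The part of expression and of CG content in these shares was not tested. These matches describe the letters in the window and are not evidence of binding.

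The libraries held 29704460 to 34184475 counts each, and 23777 to 25656 genes had a count. The stem cell genes Pou5f1, Sox2 and Nanog stood at 255 to 319, 171 to 236 and 239 to 301 FPKM (fragments scaled by gene length and library total) across the 8 libraries. They belong to a list of 12 stem cell markers, whose levels differed between groups. Under ganciclovir 0 of the 12 rose and 5 fell in HSVTK cells (41.7%, beside 28.5% of all tested genes). Between HSVTK and Control cells under DMSO, 8 were higher and 1 lower (75%, beside 33.7%). Markers of feeder fibroblasts summed to at most 18.3 CPM (counts scaled to a library total of 1e+06) for 11 genes, and the collagen Col1a1 stood at 0.06 to 0.15 FPKM. Markers of the 2-cell state went against the label. Their 12 genes summed to 74.4 and 78.9 CPM in the libraries labelled HSVTK GANC and to 29.4 to 37.6 CPM in the other 6, and 7 of the 10 tested rose between the libraries labelled HSVTK DMSO and HSVTK GANC, with a median log2 fold change of 1.14. The mitochondrial share of counts was 3.56 and 3.45% in HSVTK GANC and at most 3.17% elsewhere. Every direction below that involves these groups rests on their labels, and the part of these differences in the results was not tested.

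Per length, the members spanned a wide range of expression. Msh6, a sensor of single mismatches, was highest at 191 FPKM as the mean of all libraries, followed by the break sensor Parp1 at 99.4, Xrcc5 at 76.2, the replicative ligase Lig1 at 54.9, Apex1 at 46.0, Xrcc6 at 30.6 and Ung at 23.4. Lowest were Dclre1c at 1.15 FPKM, Neil3 at 0.998, Neil2 at 0.536 and Paxx at 0.515. The 7 genes first named include both Ku subunits and an enzyme for each of the early and last steps of base excision. The summed FPKM of the 40 members lay between 659 and 685 in every library.

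**Figure D1:**
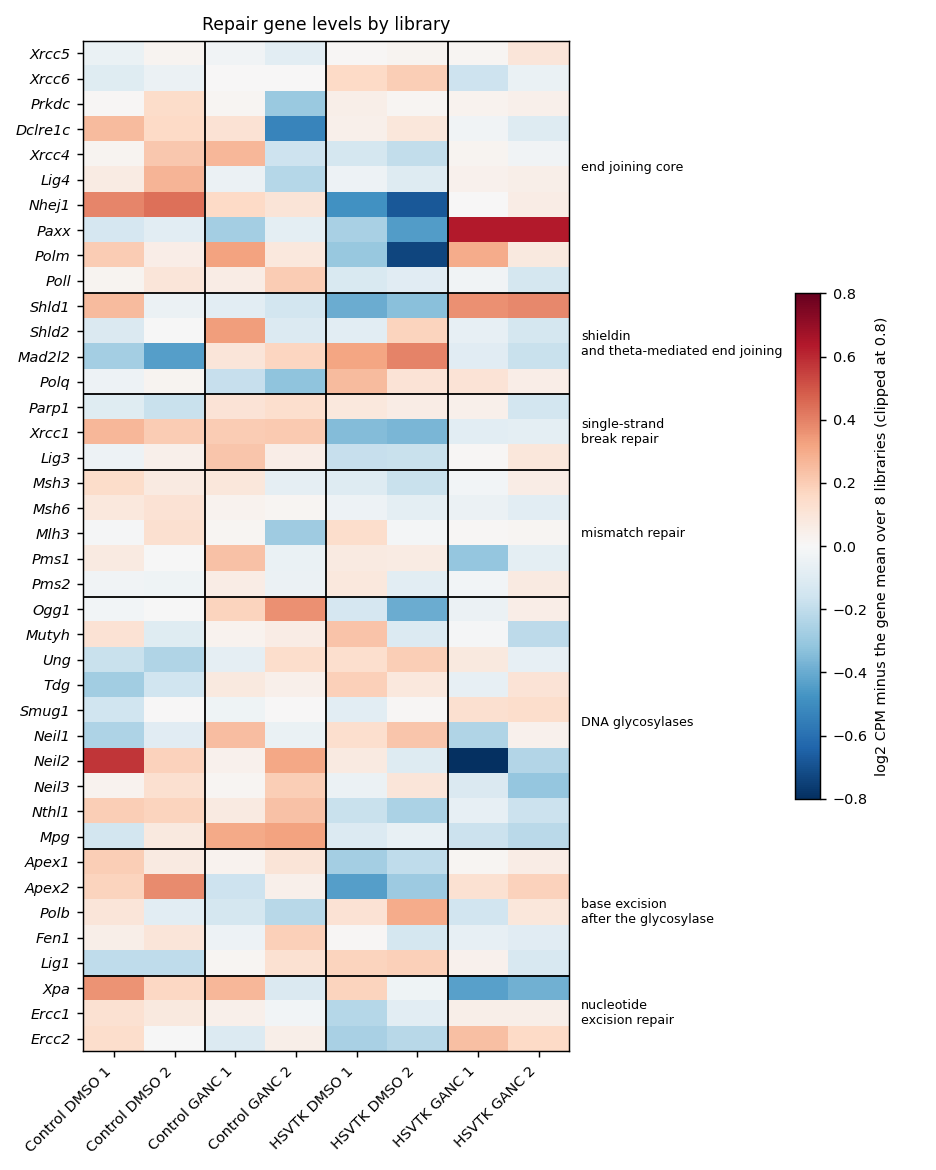
Each row is 1 of the 40 repair genes, ordered by role, and each column 1 of the 8 libraries; the colour gives the log2 CPM of a library minus the mean of that gene over all libraries, clipped at 0.8. Mad2l2, Lig1 and Ung are low in the Control DMSO columns and high in the HSVTK DMSO columns, while Nhej1, Xrcc1 and Apex2 show the opposite order.

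Ganciclovir changed 13 of the 40 members in HSVTK cells, 9 higher and 4 lower, which is 32.5% beside 28.5% of all tested genes. Of all tested genes 13.3% were higher and 15.2% lower, which is 2391 and 2728 genes. This split turned to 2758 higher and 2325 lower with scaling by library size and to 2203 and 1823 with limma on log2(FPKM + 1). In Control cells it changed 6 members, 5 higher and 1 lower, which is 15% beside 8.08% of all tested genes (4.73% higher and 3.35% lower). The response itself differed between HSVTK and Control cells for 13 members, 7 more positive and 6 more negative in HSVTK cells, beside 25.6% of all tested genes. The median log2 fold change over the members was -0.0028 in HSVTK cells and -0.03 in Control cells, beside 0.0087 and -0.0039 for all tested genes. Called members in HSVTK cells ran from -0.49 in Mad2l2 and Xpa to 1.04 in Paxx. In bulk RNA, fewer cells of a type and less RNA per cell cannot be told apart.

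The end joining core holds the genes that bind, trim, fill and seal broken ends, and in HSVTK cells ganciclovir raised 3 of its 10 members and lowered 1. These are 40% of the role, beside 28.5% of all tested genes. All changes given below with a standard error are log2 fold changes. Nhej1 encodes XLF, a scaffold that bridges the ends for ligation. Its level was 15 and 15.5 CPM with DMSO and 12.7 and 12.3 with GANC in Control cells, and 8.13 and 7.10 with DMSO and 11.4 and 11.9 with GANC in HSVTK cells. The HSVTK DMSO libraries were the lowest of all 8 and Control DMSO the highest, with no overlap between any groups. The log2 fold change under ganciclovir was 0.62 ± 0.13 (SE, adjusted p = 0.000528) in HSVTK cells and -0.29 ± 0.12 (SE, adjusted p = 0.156) in Control cells, and the responses differed by 0.90 ± 0.18 (SE, adjusted p = 0.000317). Polm, the polymerase mu that fills gaps at ends, stood at 10.1 and 9.06 CPM with DMSO and 10.9 and 9.29 with GANC in Control cells, and 7.07 and 5.23 with DMSO and 10.7 and 9.24 with GANC in HSVTK cells. Only the HSVTK DMSO libraries were set apart, below the other 6. Polm rose by 0.70 ± 0.16 (SE, adjusted p = 0.00101) in HSVTK cells, with a value of 0.08 ± 0.15 (SE, adjusted p = 0.825) in Control cells and a difference of 0.62 ± 0.22 (SE, adjusted p = 0.0336). The rise was lost without HSVTK DMSO replicate 2. Its highest adjusted p over the 18 alternatives was 0.0658, and adjusted p “up to” a value is used below in this sense.

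Paxx, a small scaffold related to Xrcc4 and Nhej1, was scarce, with 25 to 30 counts in 6 libraries and 51 and 54 in the libraries labelled HSVTK GANC. It rose by 1.04 ± 0.38 (SE, adjusted p = 0.0392) in HSVTK cells, while the value in Control cells was -0.07 ± 0.39 (SE, adjusted p = 0.95). The difference of responses was 1.11 ± 0.54 (SE, adjusted p = 0.141) and was not called by edgeR's main fit. Limma called it on log2(FPKM + 1) (0.40, adjusted p = 0.0193) and on log2(FPKM + 0.1) (0.96, adjusted p = 0.0458), but not without a filter. The call in HSVTK cells was lost with DESeq2 and without any one of the 4 HSVTK libraries. Xrcc6 is the Ku70 subunit of the ring that slides onto a broken end. It was measured at 128 and 132 CPM with DMSO and 137 and 137 with GANC in Control cells, and 153 and 156 with DMSO and 122 and 131 with GANC in HSVTK cells. The HSVTK DMSO libraries were the highest and overlapped no other group. Xrcc6 fell by 0.29 on the log2 scale in HSVTK cells (SE 0.06, adjusted p = 0.000845), with 0.07 ± 0.06 (SE, adjusted p = 0.532) in Control cells and -0.36 ± 0.09 (SE, adjusted p = 0.00293) for the difference. Its partner Xrcc5, the Ku80 subunit, ranged from 183 to 208 CPM over all libraries and did not pass the test in any of the 5 comparisons, with 0.04 ± 0.06 (SE, adjusted p = 0.64) under ganciclovir in HSVTK cells. With scaling by library size it was called higher in HSVTK than Control cells under ganciclovir (0.16, adjusted p = 0.0401). Whether both subunits differed in their response was not tested.

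The kinase Prkdc, which Ku recruits, the nuclease Dclre1c (Artemis), the ligase Lig4 with its partner Xrcc4, and the polymerase Poll were not called under ganciclovir in either cell group. No member of the end joining core was called in Control cells by edgeR's quasi-likelihood test or by DESeq2, and Prkdc, Dclre1c, Lig4 and Nhej1 had an unadjusted p below 0.05 there. Lig4 stood at 16.8 and 19.4 CPM with DMSO and 15.5 and 13.7 with GANC in Control cells, and 15.6 and 15 with DMSO and 16.4 and 16.6 with GANC in HSVTK cells. Its Control GANC libraries lay below the Control DMSO ones, and both HSVTK groups lay below Control DMSO too. The log2 fold change of Lig4 was -0.31 ± 0.11 (SE, adjusted p = 0.0961) in Control cells and 0.11 ± 0.11 (SE, adjusted p = 0.509) in HSVTK cells. The difference of its responses, 0.42 ± 0.16 (SE, adjusted p = 0.0555), was not called in the main fit. It was called with scaling by library size (0.44, adjusted p = 0.0445) and with the crossed replicate block (0.42, adjusted p = 0.0444). Dclre1c shows a spread within a group: its Control GANC libraries stood at 11.5 and 7.33 CPM, and without the first of them Dclre1c, Prkdc and Mlh3 were called lower and Ogg1 higher in Control cells, with log2 fold changes of -0.72, -0.36, -0.33 and 0.40.

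Shieldin limits the resection of broken ends, and in HSVTK cells 1 of its 3 listed subunit genes rose under ganciclovir and 1 fell. With the polymerase theta gene Polq, 50% of this role was called, beside 28.5% of all tested genes. Shld1 stood at 11.0 and 8.89 CPM with DMSO and 8.65 and 8.29 with GANC in Control cells, and 6.95 and 7.27 with DMSO and 11.9 and 12.0 with GANC in HSVTK cells. The libraries labelled HSVTK GANC were the highest of all 8 and those labelled HSVTK DMSO the lowest. It rose by 0.75 ± 0.14 (SE, adjusted p = 0.000147) in HSVTK cells, with -0.23 ± 0.14 (SE, adjusted p = 0.354) in Control cells and a difference of 0.98 ± 0.20 (SE, adjusted p = 0.000416). Mad2l2 encodes REV7, which shieldin shares with the translesion polymerase zeta. It was measured at 16.2 and 14.4 CPM with DMSO and 20.9 and 22.1 with GANC in Control cells, and 24.3 and 25.8 with DMSO and 18.4 and 17.3 with GANC in HSVTK cells. HSVTK DMSO was highest, Control DMSO lowest, and no 2 groups overlapped. Mad2l2 fell by 0.49 in HSVTK cells (SE 0.10, adjusted p = 0.000582) and rose by 0.49 ± 0.11 (SE, adjusted p = 0.00427) in Control cells, so that the responses differed by -0.98 ± 0.15 (SE, adjusted p = 1.19e-05), the largest negative difference among the members. The rise in Control cells was lost without Control DMSO replicate 2 (adjusted p = 0.0956). Shld2, which binds single-stranded DNA, ranged from 18.6 to 25.9 CPM and was not called in any comparison. Without Control GANC replicate 2, the difference of its responses (-0.56, adjusted p = 0.00877) and its level in HSVTK against Control cells under ganciclovir (-0.44, adjusted p = 0.00763) were called. Polq, the polymerase theta of microhomology joining, gave -0.10 ± 0.10 (SE, adjusted p = 0.505) in HSVTK cells and -0.24 ± 0.11 (SE, adjusted p = 0.174) in Control cells.

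**Figure D2:**
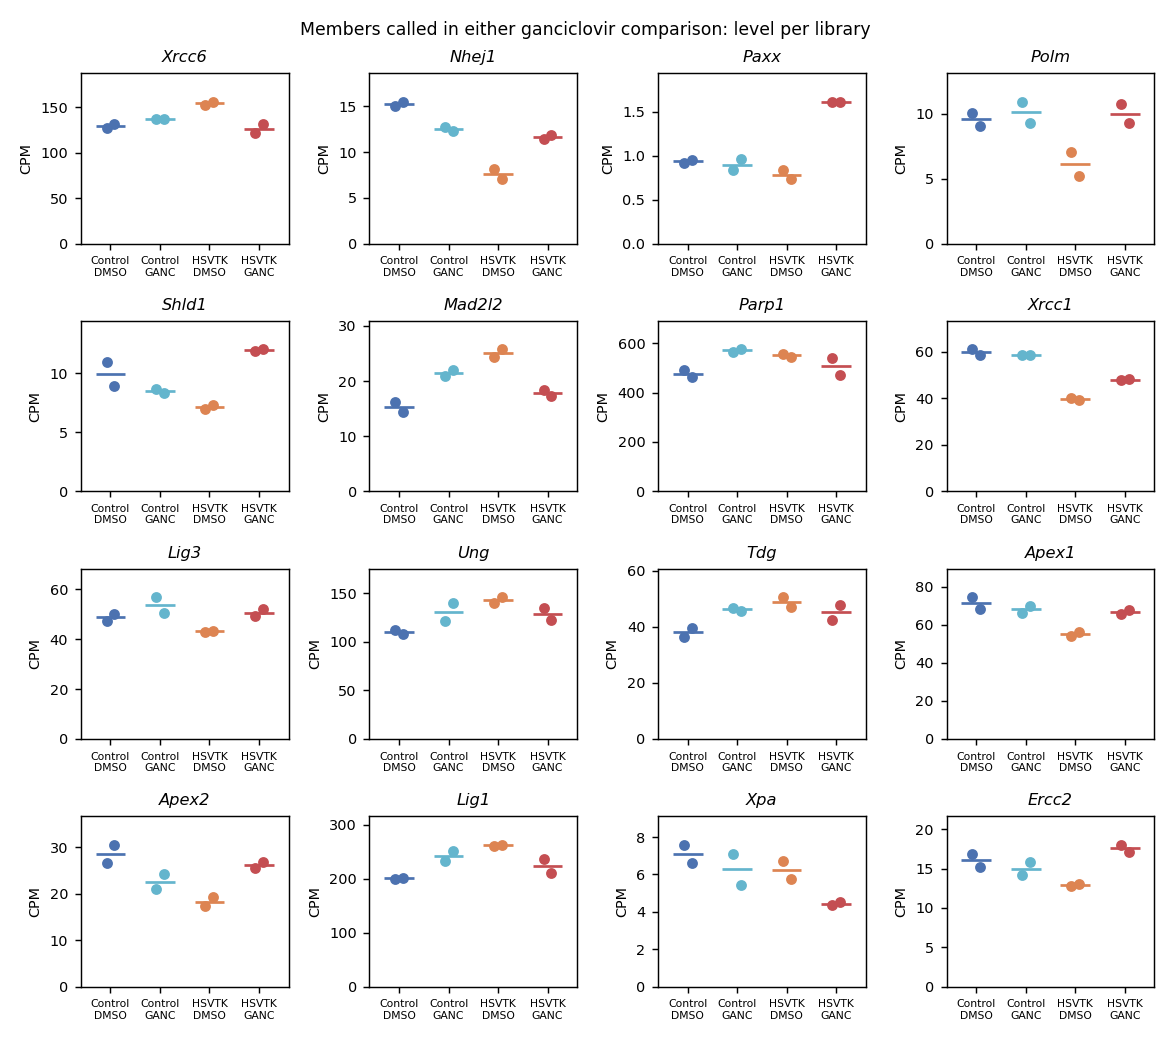
Each panel shows 1 of the 16 members called in at least 1 of both ganciclovir comparisons; points are the TMM-scaled CPM of single libraries and lines the means of the 2 libraries in each of the 4 groups. In Mad2l2 the means run from 15.3 CPM in Control DMSO to 25.0 in HSVTK DMSO, and in Nhej1 from 7.62 in HSVTK DMSO to 15.3 in Control DMSO.

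In single-strand break repair, Parp1 senses the nick, Xrcc1 is the scaffold and Lig3 the ligase bound to it. Xrcc1 stood at 61.1 and 58.6 CPM with DMSO and 58.4 and 58.8 with GANC in Control cells, and 39.9 and 39.4 with DMSO and 47.9 and 48.2 with GANC in HSVTK cells. Both HSVTK groups lay below all Control libraries, and the GANC libraries of HSVTK cells above the DMSO ones. Xrcc1 rose by 0.28 ± 0.08 (SE, adjusted p = 0.00665) in HSVTK cells, with -0.03 ± 0.07 (SE, adjusted p = 0.868) in Control cells and a difference of 0.31 ± 0.11 (SE, adjusted p = 0.0328). The rise was lost without either HSVTK DMSO library (adjusted p up to 0.0834), and the difference was lost without any one of the 8 libraries (adjusted p up to 0.173). Lig3 stood at 47.5 and 50.3 CPM with DMSO and 57.0 and 50.7 with GANC in Control cells, and 43.1 and 43.2 with DMSO and 49.1 and 52.1 with GANC in HSVTK cells. The GANC libraries of HSVTK cells lay above their DMSO libraries and overlapped with both Control groups. Lig3 rose by 0.23 ± 0.08 (SE, adjusted p = 0.0302) in HSVTK cells, a call lost in 10 of the 18 alternatives, among them without any one HSVTK or Control DMSO library (adjusted p up to 0.218). In the annotation 25.1% of its exonic bases are shared with Rffl, at -0.11 in HSVTK cells (adjusted p = 0.577). Parp1, which attaches ADP-ribose chains to proteins at breaks, was measured at 491 and 464 CPM with DMSO and 566 and 576 with GANC in Control cells, and 556 and 546 with DMSO and 540.3 and 473 with GANC in HSVTK cells. HSVTK GANC replicate 2 lay between both Control DMSO libraries, and the other 5 libraries lay above them. Parp1 rose by 0.26 ± 0.06 (SE, adjusted p = 0.00549) in Control cells, with -0.12 ± 0.06 (SE, adjusted p = 0.122) in HSVTK cells and a difference of -0.38 ± 0.08 (SE, adjusted p = 0.000907). The rise in Control cells was lost without Control DMSO replicate 2 and with limma on FPKM (adjusted p up to 0.179). In HSVTK cells Parp1 was called lower without HSVTK GANC replicate 1 (-0.23, adjusted p = 0.0106) or either Control GANC library.

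In mismatch repair none of the 5 members was called by edgeR or DESeq2 under ganciclovir in HSVTK cells or in Control cells. At an unadjusted p below 0.05 stood 1 member in each, Pms1 in HSVTK cells and Mlh3 in Control cells. Pms1 was called without HSVTK GANC replicate 2 (-0.39, adjusted p = 0.0443), without either Control GANC library and in a fit of the 4 HSVTK libraries alone. Msh6 encodes the sensor of single mismatches and was measured at 879 and 897 CPM with DMSO and 846 and 839 with GANC in Control cells, and 807 and 785 with DMSO and 804 and 782 with GANC in HSVTK cells. The 2 Control GANC libraries lay below Control DMSO and above all HSVTK libraries. Its log2 fold change was -0.0064 ± 0.05 (SE, adjusted p = 0.944) in HSVTK cells and -0.08 ± 0.05 (SE, adjusted p = 0.397) in Control cells. Msh3, whose pair finds longer loops, stood at 54.8 and 52.1 CPM with DMSO and 52.8 and 47.1 with GANC in Control cells, and 46.1 and 43.7 with DMSO and 48.8 and 51.5 with GANC in HSVTK cells; only HSVTK DMSO lay below the other groups. Its log2 fold change was 0.16 ± 0.08 (SE, adjusted p = 0.143) in HSVTK cells. Of the MutL-type partners, Pms2, which nicks the new strand, ranged from 30.5 to 34.3 CPM and gave 0.02 ± 0.09 (SE, adjusted p = 0.884). Pms1 gave -0.26 ± 0.11 (SE, adjusted p = 0.0837) and Mlh3 -0.05 ± 0.09 (SE, adjusted p = 0.721). The standard errors of the 5 genes in this comparison ran from 0.05 to 0.11. Lists of the cell cycle give the setting of these replication-linked genes. Of 24 genes of G1/S and S phase, 2 rose and 5 fell in HSVTK cells under ganciclovir, with a median of -0.05. These are 29.2% of the list, near the 28.5% of all tested genes. Of 24 genes of G2 and mitosis 0 rose and 14 fell (58.3%), with a median of -0.20. In Control cells 4 genes of the first list rose and 4 of the second fell (16.7% of each, beside 8.08% of all tested genes). Whether they bear on the repair genes was not tested.

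DNA glycosylases each remove a certain kind of altered base. In HSVTK cells none of the 10 was called by edgeR or DESeq2, with Ogg1 and Ung at an unadjusted p below 0.05. Ung was called lower there without either Control GANC library and in a fit of the 4 HSVTK libraries alone. In Control cells 2 rose, which is 20% beside 8.08% of all tested genes. Ung, which removes uracil, stood at 113 and 108 CPM with DMSO and 121 and 140.3 with GANC in Control cells, and 139.9 and 146 with DMSO and 135 and 122 with GANC in HSVTK cells. Control DMSO was lowest and overlapped no other group. It rose by 0.25 ± 0.07 (SE, adjusted p = 0.0291) in Control cells, with -0.16 ± 0.07 (SE, adjusted p = 0.0969) in HSVTK cells and a difference of -0.40 ± 0.10 (SE, adjusted p = 0.00327). Tdg acts on thymine and uracil paired with guanine and on oxidised forms of methylcytosine, which ties it to DNA demethylation. Tdg was measured at 36.5 and 39.6 CPM with DMSO and 46.8 and 45.7 with GANC in Control cells, and 50.7 and 47.0 with DMSO and 42.4 and 47.8 with GANC in HSVTK cells. Again Control DMSO was lowest. Tdg rose by 0.28 ± 0.08 (SE, adjusted p = 0.0351) in Control cells, with -0.11 ± 0.08 (SE, adjusted p = 0.337) in HSVTK cells and a difference of -0.40 ± 0.12 (SE, adjusted p = 0.0135). Both calls in Control cells were fragile: Ung's was lost in 7 and Tdg's in 9 of the 18 alternatives, among them without either Control DMSO library or without Control GANC replicate 2, and for Tdg also without Control GANC replicate 1 or HSVTK DMSO replicate 1 (adjusted p up to 0.349 and 0.288). Tdg has a pseudogene in the annotation, and the treatment of reads that match both is unknown here.

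The other glycosylases did not pass in either drug comparison. Ogg1, which removes oxidised guanine, stood at 16.6 and 16.9 CPM with DMSO and 19.1 and 21.8 with GANC in Control cells, and 15.4 and 12.8 with DMSO and 16.3 and 17.5 with GANC in HSVTK cells. The Control GANC libraries were the highest. Its log2 fold changes were 0.26 ± 0.12 (SE, adjusted p = 0.0906) in HSVTK cells and 0.29 ± 0.11 (SE, adjusted p = 0.126) in Control cells. Mpg, which removes alkylated purines, gave 0.35 ± 0.14 (SE, adjusted p = 0.119) in Control cells and -0.11 ± 0.14 (SE, adjusted p = 0.612) in HSVTK cells, and 35.7% of its exonic bases overlap with Nprl3. Mutyh, Smug1, Neil1, Neil2, Neil3 and Nthl1 remove adenine opposite oxidised guanine, uracil, or oxidised bases. Their values under ganciclovir in HSVTK cells ran from -0.50 in Neil2 to 0.18 in Smug1, and Neil2, at 1.43 to 3.91 CPM, had the largest error, with an SE of 0.26.

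After the glycosylase, Apex1 and Apex2 cut the strand at the empty site, Polb fills the gap, Fen1 trims a flap and Lig1 seals. Ganciclovir raised both endonuclease genes and lowered the ligase in HSVTK cells. These are 60% of the 5 genes, beside 28.5% of all tested genes. Apex2 stood at 26.6 and 30.5 CPM with DMSO and 20.9 and 24.2 with GANC in Control cells, and 17.3 and 19.2 with DMSO and 25.6 and 26.7 with GANC in HSVTK cells. HSVTK DMSO was the lowest and Control DMSO and HSVTK GANC partly overlapped at the top. It rose by 0.52 ± 0.10 (SE, adjusted p = 0.000399) in HSVTK cells and fell by 0.34 in Control cells (SE 0.10, adjusted p = 0.0379), a fall that was lost in 11 of the 18 alternatives, among them without any library other than Control GANC replicate 2 (adjusted p up to 0.423). The responses differed by 0.86 ± 0.15 (SE, adjusted p = 6.61e-05). Apex1, the main endonuclease and also a redox factor, was measured at 74.8 and 68.4 CPM with DMSO and 66.4 and 69.9 with GANC in Control cells, and 53.9 and 56.5 with DMSO and 66.0 and 67.9 with GANC in HSVTK cells. HSVTK DMSO again lay below the other 6 libraries. Apex1 rose by 0.28 ± 0.07 (SE, adjusted p = 0.00514) in HSVTK cells, with -0.07 ± 0.07 (SE, adjusted p = 0.632) in Control cells and a difference of 0.35 ± 0.10 (SE, adjusted p = 0.0133). The rise was not called when HSVTK GANC replicate 2 or HSVTK DMSO replicate 1 was left out (adjusted p up to 0.108). In the annotation 61.7% of Apex1's exonic bases lie opposite Pip4p1, which fell by 0.29 in HSVTK cells (SE 0.08, adjusted p = 0.00973).

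Lig1 also joins Okazaki fragments in replication. Its level was 200.2 and 201 CPM with DMSO and 233 and 251 with GANC in Control cells, and 261 and 263 with DMSO and 236 and 211 with GANC in HSVTK cells. Control DMSO lay lowest and HSVTK DMSO highest, while the GANC groups of both cells overlapped. Lig1 fell by 0.23 in HSVTK cells (SE 0.06, adjusted p = 0.00514) and rose by 0.27 ± 0.06 (SE, adjusted p = 0.00598) in Control cells, and the difference of -0.50 ± 0.09 (SE, adjusted p = 7.41e-05) held in all 17 alternatives run for it. The fall was lost without replicate 2 of either HSVTK group (adjusted p up to 0.105). The rise was lost without either Control DMSO library and with limma (adjusted p up to 0.147). Polb was not called, at -0.23 ± 0.10 (SE, adjusted p = 0.0871) in HSVTK cells and -0.19 ± 0.10 (SE, adjusted p = 0.287) in Control cells, but fell by 0.37 in HSVTK cells without HSVTK GANC replicate 2 (adjusted p = 0.0333). Fen1, at 9.17 to 11.5 CPM, was not called either, with -0.01 ± 0.13 (SE, adjusted p = 0.959) and 0.0065 ± 0.13 (SE, adjusted p = 0.986). In the annotation 84.2% of Fen1's exonic bases overlap with an antisense gene or Tmem258, and the part of this overlap in its low count was not tested.

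In nucleotide excision repair, Ercc2 is the XPD helicase that opens DNA around the lesion as part of TFIIH, Xpa checks the lesion, and Ercc1 is a subunit of the nuclease that cuts on its 5′ side. Ercc2 stood at 16.9 and 15.2 CPM with DMSO and 14.2 and 15.8 with GANC in Control cells, and 12.7 and 13.1 with DMSO and 18.1 and 17.1 with GANC in HSVTK cells. The libraries labelled HSVTK GANC were the highest of all and those labelled HSVTK DMSO the lowest. Ercc2 rose by 0.44 ± 0.11 (SE, adjusted p = 0.00367) in HSVTK cells, with -0.10 ± 0.11 (SE, adjusted p = 0.673) in Control cells and a difference of 0.55 ± 0.16 (SE, adjusted p = 0.0123). Of its exonic bases 42.7% are shared with other genes, among them Klc3, which moved the opposite way, by -1.01 ± 0.20 in HSVTK cells (adjusted p = 0.000342) and 1.06 ± 0.20 in Control cells (adjusted p = 0.00116). Xpa stood at 7.60 and 6.63 CPM with DMSO and 7.11 and 5.44 with GANC in Control cells, and 6.70 and 5.75 with DMSO and 4.34 and 4.51 with GANC in HSVTK cells. The libraries labelled HSVTK GANC were the lowest. Xpa fell by 0.49 in HSVTK cells (SE 0.18, adjusted p = 0.0363), a call lost in 8 alternatives, among them scaling by library size, DESeq2 and leaving out HSVTK DMSO replicate 1 or either HSVTK GANC library (adjusted p up to 0.23). Ercc1 gave 0.20 ± 0.09 (SE, adjusted p = 0.119) in HSVTK cells. In Control cells edgeR and DESeq2 called none of these 3 genes, and none had an unadjusted p below 0.05.

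**Figure D3:**
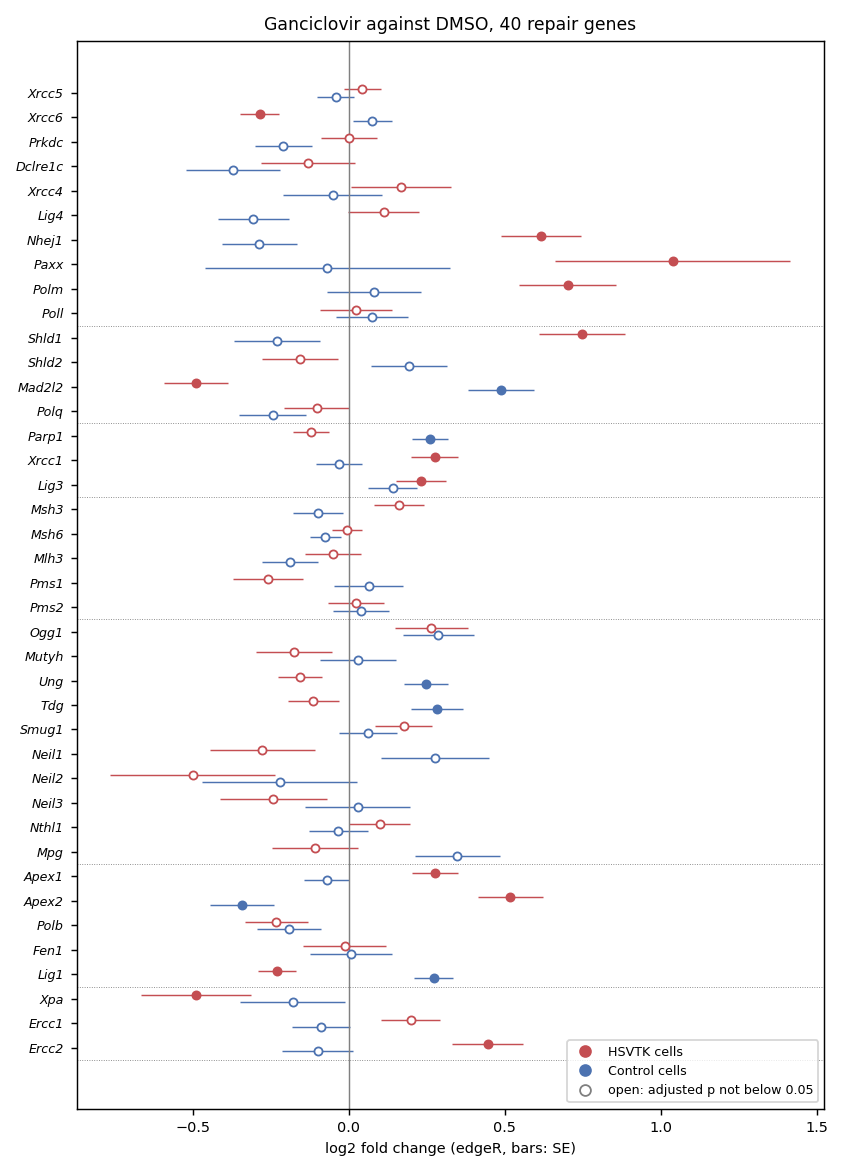
Each row is 1 of the 40 members, ordered by role, with its log2 fold change of GANC against DMSO on the x axis in HSVTK cells (red) and Control cells (blue); bars are standard errors and filled points have an adjusted p below 0.05. Mad2l2 and Lig1 have filled points on opposite sides of 0, lower in HSVTK and higher in Control cells, and Apex2 has them the other way round.

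The cell groups also differed without the drug. Under DMSO, 17 members were called between HSVTK and Control cells, 6 higher and 11 lower in HSVTK cells (42.5%), beside 33.7% of all tested genes (16.4% higher and 17.3% lower). Under ganciclovir 7 were called, 2 higher and 5 lower (17.5%), beside 26.1% of all tested genes (11.1% higher and 14.9% lower). With scaling by library size alone the split of all called genes under DMSO changed from 2957 higher and 3103 lower to 3233 and 2818. The split under ganciclovir changed from 2004 higher and 2681 lower to 2579 and 2190, and that of the members to 3 higher and 2 lower. The 2 comparisons use the same libraries as the drug comparisons, so their values are set side by side and not read as separate evidence. Under DMSO, Mad2l2 at 0.71 ± 0.10 (SE, adjusted p = 3.83e-06), Lig1 at 0.39 ± 0.06 (SE, adjusted p = 1.24e-05), Ung at 0.38 ± 0.07 (SE, adjusted p = 0.000114), Tdg at 0.36 ± 0.08 (SE, adjusted p = 0.00123), Xrcc6 at 0.25 ± 0.06 (SE, adjusted p = 0.00222) and Parp1 at 0.21 ± 0.06 (SE, adjusted p = 0.006) were higher in HSVTK cells. The calls of Xrcc6 and Parp1 were lost when 1 library was left out (Control DMSO replicate 1 for Xrcc6, Control DMSO replicate 2 or HSVTK DMSO replicate 1 for Parp1).

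Lower in HSVTK cells under DMSO were, among others, Nhej1 at -1.0 ± 0.13 (SE, adjusted p = 3.22e-07), Xrcc1 at -0.59 ± 0.08 (SE, adjusted p = 3.72e-07), Apex2 at -0.65 ± 0.10 (SE, adjusted p = 1.62e-05) and Apex1 at -0.37 ± 0.07 (SE, adjusted p = 0.000197). Polm gave -0.64 ± 0.16 (SE, adjusted p = 0.00189) and Shld1 -0.48 ± 0.14 (SE, adjusted p = 0.00798). Leaving out HSVTK DMSO replicate 2 ended the call of Polm, and leaving out replicate 1 of either DMSO group that of Shld1. Nthl1, which removes oxidised pyrimidines, gave -0.41 ± 0.10 (SE, adjusted p = 0.00134). Both mismatch sensors were lower, Msh3 at -0.25 ± 0.08 (SE, adjusted p = 0.0149) and Msh6 at -0.16 ± 0.05 (SE, adjusted p = 0.0128), and both missed the threshold when Control DMSO replicate 1 or HSVTK DMSO replicate 2 was left out, that of Msh6 also without either of the other DMSO libraries (adjusted p up to 0.176 and 0.191). The calls of Ercc1 and Ercc2, at -0.25 ± 0.09 (SE, adjusted p = 0.0384) and -0.32 ± 0.11 (SE, adjusted p = 0.0335), were lost without any of the 4 DMSO libraries. The group labelled HSVTK DMSO had the lowest of the 4 group means in 15 of the 40 members (37.5%) and in 29.2% of all tested genes, and Control DMSO had the highest in 14 members (35.0%) against 24.2%.

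Under ganciclovir Shld1 at 0.49 ± 0.14 (SE, adjusted p = 0.00739) and Polq at 0.33 ± 0.11 (SE, adjusted p = 0.0211) were higher in HSVTK cells, and Xrcc1 at -0.29 ± 0.07 (SE, adjusted p = 0.00452), Mpg at -0.51 ± 0.14 (SE, adjusted p = 0.00622), Parp1 at -0.17 ± 0.06 (SE, adjusted p = 0.0271), Nthl1 at -0.27 ± 0.10 (SE, adjusted p = 0.0333) and Xpa at -0.51 ± 0.18 (SE, adjusted p = 0.0332) were lower. Neil2 lay at the threshold, at -0.70 ± 0.26 (SE, adjusted p = 0.0501), and was called in several alternatives. Xrcc1 was lower in HSVTK cells under both treatments in all 18 alternatives. The calls of Shld1, Polq, Parp1, Nthl1 and Xpa under ganciclovir were each lost without HSVTK GANC replicate 2, those of Polq and Xpa also without HSVTK GANC replicate 1, those of Polq and Nthl1 without Control GANC replicate 2 and that of Xpa without Control GANC replicate 1 (adjusted p up to 0.353). None of the 10 end joining core genes was called by edgeR's main fit or DESeq2 in this comparison. Paxx alone (1 gene) had an unadjusted p below 0.05, and limma on FPKM called 1. Prkdc gave 0.31 without Control GANC replicate 1, and Xrcc5 was called with scaling by library size, as given above. None of the 5 mismatch genes was called by edgeR's main fit, DESeq2 or limma, and Pms1 had an unadjusted p below 0.05. EdgeR without the filter on low counts called Pms1 lower (-0.31, adjusted p = 0.0431). Pms1 gave -0.43 without Control GANC replicate 2 and -0.42 without HSVTK GANC replicate 2, and Mlh3 gave 0.28 without Control GANC replicate 1. Of the 5 genes of later base excision steps, edgeR's main fit, DESeq2 and limma also called none, and Apex2 had an unadjusted p below 0.05. Lig1 gave -0.19 without Control GANC replicate 1 and -0.21 without HSVTK GANC replicate 1.

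Set over the 4 groups, the medians of the 7 roles lay between -0.18 and 0.13 on the log2 scale, as deviations of each gene from its own mean. For the 10 end joining core genes the median was 0.10 with DMSO and -0.03 with GANC in Control cells, and -0.09 with DMSO and 0.03 with GANC in HSVTK cells. The 10 glycosylases stood at -0.02, 0.10, 0.01 and -0.11 in the same order. For mismatch repair the 4 medians ran from 0.00093 to 0.06, the smallest span of the 7 roles. The 3 single-strand break genes had the lowest single median, -0.18 in HSVTK DMSO, and the 3 nucleotide excision genes stood at -0.15 there. For all tested genes the 4 medians lay between -0.0013 and 0.01. Those rest on 17976 genes and a role on 3 to 10, and a median of so few genes can lie further from 0.

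**Figure D4:**
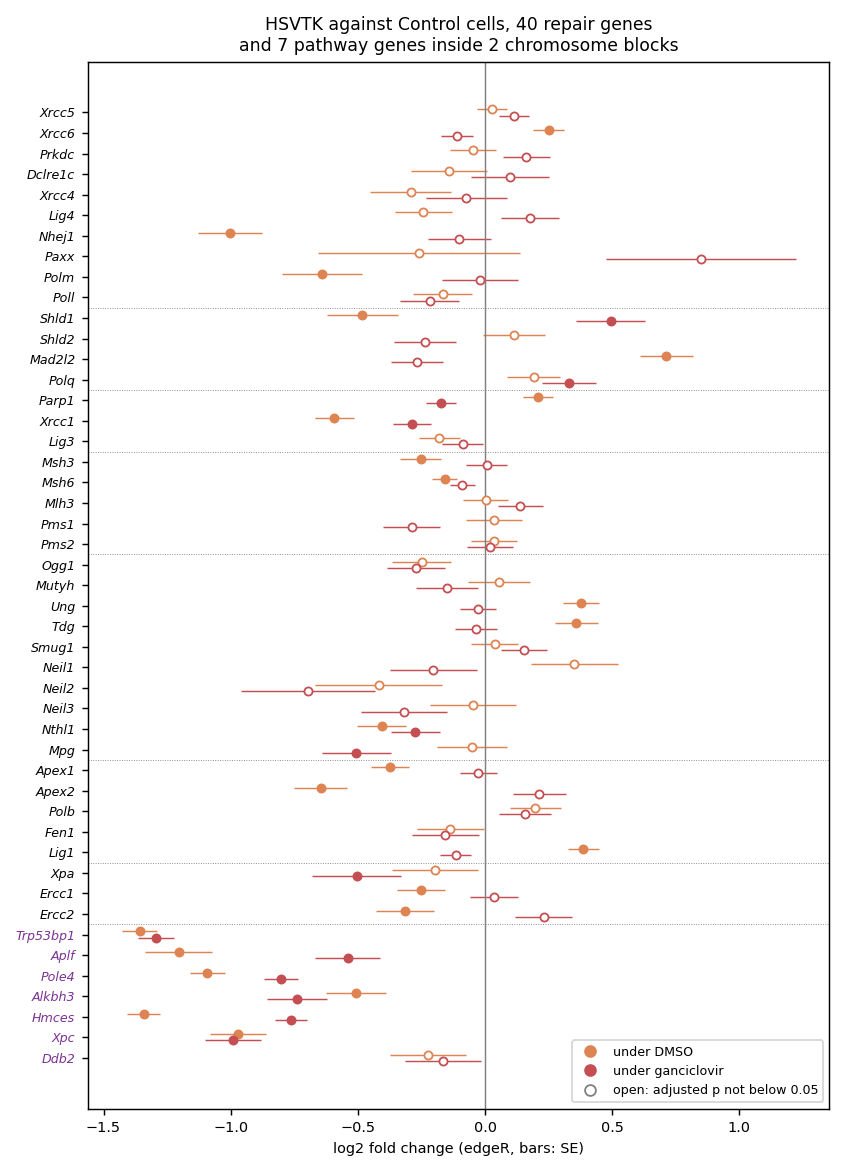
Each row is 1 repair gene, with the log2 fold change of HSVTK against Control cells on the x axis, under DMSO (orange) and under ganciclovir (red); bars are standard errors, filled points have an adjusted p below 0.05, and the last 7 rows are other repair genes in stretches of chromosomes 2 and 6. Trp53bp1 lies far below 0 under both treatments, at -1.36 and -1.29, while Nhej1 lies at -1.0 under DMSO and -0.10 under ganciclovir.

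Other genes of the same pathways were listed by name, 70 in all, of which 69 were tested. Ganciclovir raised 12 and lowered 8 of them in HSVTK cells, which is 29.0% beside 28.5% of all tested genes. It raised 0 and lowered 6 in Control cells, which is 8.70% beside 8.08%. Both shares are near those of all tested genes. In end joining and break signalling, Aplf, an end joining scaffold, rose by 0.57 ± 0.14 (SE, adjusted p = 0.00189) in HSVTK cells, the shieldin subunit Shld3 by 0.70 ± 0.18 (SE, adjusted p = 0.00424) and the translesion polymerase Polk by 0.44 ± 0.12 (SE, adjusted p = 0.00866), while Mdc1, which binds the damage mark on histone H2AX, gave -0.26 ± 0.06 (SE, adjusted p = 0.00278). Shld3 and Shld1 thus both rose while Mad2l2 fell. In Control cells Rif1, which recruits shieldin to breaks, gave -0.42 ± 0.08 (SE, adjusted p = 0.00167). In mismatch repair the polymerase delta subunits Pold2 and Pold3 fell by 0.42 (SE 0.07, adjusted p = 4.53e-05) and 0.29 (SE 0.07, adjusted p = 0.00233) in HSVTK cells, and 4 of the 14 listed genes fell in all. No gene of this list rose, so 28.6% were called, beside 28.5% of all tested genes (15.2% lower). None of those 14 was called in Control cells by edgeR or DESeq2, and 2 had an unadjusted p below 0.05.

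In base excision and single-strand break repair 3 of 17 other genes rose in HSVTK cells, Hmces, which shields empty sites in single-stranded DNA, by 0.42 ± 0.06 (SE, adjusted p = 9.39e-06), Nudt1, which cleans oxidised nucleotides from the pool, by 0.28 ± 0.10 (SE, adjusted p = 0.0281) and Parg, which removes ADP-ribose chains, by 0.21 ± 0.07 (SE, adjusted p = 0.0228). No gene of this list fell, so 17.6% were called, beside 28.5% of all tested genes (13.3% higher). In nucleotide excision repair 6 of 24 rose and 2 fell, which is 33.3% beside the same 28.5%. Ercc4, the XPF nuclease that partners Ercc1, rose by 0.80 ± 0.10 (SE, adjusted p = 3.84e-07) and the nuclease Ercc5 by 0.36 ± 0.10 (SE, adjusted p = 0.00682). Of the TFIIH kinase module Cdk7 rose by 0.30 ± 0.07 (SE, adjusted p = 0.00216) and Mnat1 gave -0.29 ± 0.07 (SE, adjusted p = 0.00269).

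Some of these genes were lower in HSVTK cells whatever the treatment. Of the 69, 13 were higher and 20 lower in HSVTK than Control cells under DMSO, which is 47.8% beside 33.7% of all tested genes. Under ganciclovir 9 were higher and 13 lower, which is 31.9% beside 26.1%. On chromosome 2, 165 of 265 tested genes between Dnajc10 and Sord (62.3%) were lower in HSVTK cells under DMSO, with a median log2 fold change of -0.59, and on chromosome 6, 161 of 248 between Scrn1 and Tmf1 (64.9%), with a median of -0.95. Under ganciclovir the medians were -0.50 and -0.91. These stretches were taken from earlier results of these same libraries, so the counts describe them and are not a test. The same holds for the repair genes inside them. Of the 7 listed repair genes inside them, Trp53bp1, Alkbh3, Aplf, Pole4, Hmces and Xpc were lower under both treatments. Ddb2, named as the exception after its values were seen, was not called. Trp53bp1 encodes 53BP1, which steers breaks to end joining and stands upstream of shieldin. It was measured at 128 and 128 CPM with DMSO and 113 and 115 with GANC in Control cells, and 51.7 and 48.2 with DMSO and 48.2 and 44.4 with GANC in HSVTK cells. All 4 HSVTK libraries lay below all 4 Control libraries. Trp53bp1 gave -1.36 ± 0.07 (SE, adjusted p = 9.35e-15) under DMSO and -1.29 ± 0.07 (SE, adjusted p = 4.33e-14) under ganciclovir. Xpc, the damage sensor of nucleotide excision repair, gave -0.97 ± 0.11 (SE, adjusted p = 4.84e-08) and -0.99 ± 0.11 (SE, adjusted p = 6.11e-08). None of the 40 members lies in either stretch, and they are spread over 18 chromosomes.

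Counts of some members may include reads of neighbours, or may lack reads that fall in shared bases. In the GENCODE vM21 annotation of GRCm38, matched by Ensembl ID, 21 of the 40 members share exonic bases with another gene and 5 share over 20%: Fen1, Apex1, Ercc2, Mpg and Lig3. The strand setting of the counting is unknown here, so reads of these genes and of the partners on the opposite strand cannot be told apart.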

How the data were processed

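RNA was sequenced from 8 libraries of mouse embryonic stem cells, 2 in each of 4 groups given by the labels. Per the submitters' processing notes, the build was GRCm39 and the tools were featureCounts 2.0.1, HISAT2 2.1.0, DESeq2 1.40.2 and fastp 0.23.2. The annotation release, the strand setting and the treatment of multiple matches were not stated in what was used here. The authors deposited whole-number counts per gene without normalization, and FPKM values that equal those counts divided by gene length and library total.

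Counts of all 8 libraries were fitted with edgeR 4.0.16 in R 4.3.3 (TMM scaling, filterByExpr, a mean per group, 4 residual degrees of freedom). The quasi-likelihood F test was adjusted by Benjamini-Hochberg over 17976 genes, and genes below 0.05 were called in 5 comparisons. The standard error was taken as the absolute log2 fold change over the square root of F. CPM are TMM-scaled, and levels between genes are in FPKM. The biological coefficient of variation was 6.31%, and within each group the libraries differed beyond counting noise (chi-square per degree of freedom 3.58 to 8.39). The procedure was tested on simulated data.

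The 18 alternatives were library size scaling, relative log expression size factors, no filter, DESeq2 1.42.0, only the 4 libraries of a comparison, limma 3.58.1 on log2(FPKM + 1), on log2(FPKM + 0.1) and without a filter, the replicate number as a block, that block crossed, and each library left out.

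The members and all lists were chosen with earlier results of these data known. Per-library values are given for members called in a ganciclovir comparison or its difference and for examples of roles that did not pass. Of other pathway genes at most the 4 lowest adjusted p values of a list are named per comparison. No coordinates of the counted genes are printed because no GRCm39 annotation was used here.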

Additional observations from a re-analysis of the deposited data

Results flagged for a closer look

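For 13 of the 40 repair genes the response to ganciclovir differed between HSVTK and Control cells by edgeR's quasi-likelihood test of the difference itself, with p-values adjusted by Benjamini-Hochberg over all 17976 tested genes. Of all tested genes 25.6% were called in the same test. All 13 were also called between HSVTK and Control cells under DMSO, each in the opposite direction to its difference of responses. The difference of responses contains the DMSO difference with its sign reversed, so opposite directions are partly built in for any gene. The share of all tested genes with this pattern was not counted. Under ganciclovir, Shld1, Parp1 and Xrcc1 were the only ones of the 13 called between the cell groups. These comparisons share their libraries with the difference, so they are not separate evidence, and the part of the DMSO groups in it was not tested. Values are the log2 fold change in HSVTK cells minus that in Control cells.

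In 7 genes the response was more positive in the cells labelled HSVTK. The difference was 0.98 for the shieldin subunit Shld1 (adjusted p = 0.000416), 0.90 for the end joining scaffold Nhej1 (adjusted p = 0.000317), 0.86 for the endonuclease Apex2 (adjusted p = 6.61e-05) and 0.62 for the polymerase Polm (adjusted p = 0.0336). It was 0.55 for the helicase Ercc2 (adjusted p = 0.0123), 0.35 for the endonuclease Apex1 (adjusted p = 0.0133) and 0.31 for the scaffold Xrcc1 (adjusted p = 0.0328). The values of Shld1, Nhej1 and Apex2 were called in all 17 alternatives run for the difference. That of Polm was lost in 8 of the 17, namely with DESeq2, in limma's 3 fits and without replicate 1 of Control DMSO or HSVTK GANC or replicate 2 of Control GANC or HSVTK DMSO (adjusted p up to 0.247). That of Ercc2 was lost in limma's fit without a filter and without replicate 1 of any of the 4 groups (adjusted p up to 0.0869). That of Apex1 was lost without HSVTK GANC replicate 2 or without replicate 1 of either DMSO group (adjusted p up to 0.141), and that of Xrcc1 without the filter on low counts or without any single library (adjusted p up to 0.173).

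In 6 genes it was more negative. The difference was -0.98 for Mad2l2 (adjusted p = 1.19e-05), -0.50 for the ligase Lig1 (adjusted p = 7.41e-05), -0.40 for the uracil glycosylase Ung (adjusted p = 0.00327), -0.40 for Tdg (adjusted p = 0.0135), -0.38 for Parp1 (adjusted p = 0.000907) and -0.36 for the Ku subunit Xrcc6 (adjusted p = 0.00293). The values of Mad2l2, Lig1 and Xrcc6 were called in all 17 alternatives. Those of Ung and Parp1 were lost only in limma's fit without a filter (adjusted p of 0.118 and 0.0802). That of Tdg was lost in limma's 3 fits and without replicate 1 of Control DMSO, HSVTK DMSO or HSVTK GANC (adjusted p up to 0.134).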

How the results depend on the processing

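Of 304 fold changes followed through the alternatives, none of the 160 called ones changed sign. Of the 144 not called, 46 changed sign in some alternative, the largest of them at 0.24 on the log2 scale, and none was called after the change. The members called in the main analysis and in every alternative numbered 6 of 13 for ganciclovir in HSVTK cells, 0 of 6 in Control cells, 6 of 13 for the difference of responses, 9 of 17 for the cell groups under DMSO and 1 of 7 under ganciclovir. Leaving out each library in turn gave 8 to 16 called members in HSVTK cells, 0 (without Control DMSO replicate 2, with 10 at an unadjusted p below 0.05) to 8 in Control cells, 9 to 15 for the difference, 11 to 17 under DMSO and 4 to 11 under ganciclovir. For all genes the ranges were 3313 to 5627, 433 to 2010, 3415 to 4638, 4399 to 6560 and 2999 to 4497. In Control cells the 6 called members became 3 in a fit of the 4 libraries of the comparison, 1 with limma on log2(FPKM + 1), 1 on log2(FPKM + 0.1) and 0 with limma without a filter (10 at an unadjusted p below 0.05), and the 1453 called genes became 942, 190, 251 and 29. Limma without a filter also called 8 members for the difference, 10 under DMSO and 2 under ganciclovir, and 2615, 1981, 3652 and 2288 genes for ganciclovir in HSVTK cells, the difference, DMSO and ganciclovir. With a filter limma called 4 members under ganciclovir with either pseudocount. The cause was not tested.

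Deviations of same-numbered libraries correlated from -0.24 (Control DMSO with Control GANC) to 0.13 over 8553 genes. Such values cannot settle whether libraries were paired, since a negative one can also arise from pairs with exchanged numbers. With the replicate block the called members were again 13, 6, 13, 17 and 7, and the called genes 4932, 1339, 4433, 5882 and 4517. With the numbers of Control DMSO exchanged, chosen after seeing the data, they were 13, 6, 14, 17 and 8 members. The called genes were then 5357, 1804, 4875, 6313 and 4938, more than in the main analysis in each comparison. Precision is limited by 2 libraries a group and, for Paxx, by 25 to 54 counts.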
